A study of Homo sapiens with 4 samples.

Results

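The regions described here are the open chromatin regions that lay deep inside very long protein-coding genes. A region was a member if it overlapped a RefSeq gene span of at least 500 kb and lay more than 10 kb from both ends of every protein-coding gene. The rule used position alone, and it found 9671 members among the 125985 nuclear regions of 125986 listed. Of 20037 protein-coding genes, 315 were long enough, and 314 of them held at least 1 member. The exception was PCDH11Y, a protocadherin gene of the Y chromosome. Among the 9671, 47 members lay in the overlap of 2 long genes and were counted for both in values per gene. They are the 47 members of SCHIP1, whose span lies inside that of IQCJ-SCHIP1, so this locus enters values per gene under both names.

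ATAC-seq reads open chromatin through Tn5, a transposase that inserts sequencing adapters where DNA is accessible. The cells were A375, an established human melanoma line grown in DMEM with serum, and they received either octanoate, a medium-chain fatty acid, at 1 mM or its vehicle isopropanol for 48 h. Each group had 2 libraries, 4 in all, and the labels do not say whether the libraries of a group came from separate cultures, so the deposited p-values may measure technical spread only. Every fold change below is octanoate over vehicle, on the log2 scale, from the authors' deposited table of their comparison, which holds no value for a single library. The mean signal of a region is its normalized read count averaged over the 4 libraries.

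Genes of this length are mostly intron. Many of them encode adhesion molecules, receptors and channels of neurons, and several span common fragile sites, stretches that break when replication is slowed. Open regions far from a gene's ends can be enhancers, insulators or alternative starts of shorter transcripts, and melanocytes share a neural crest origin with part of the nervous system.

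The labelled cell type was checked at 9 melanocyte lineage genes. A listed region lay within 1 kb of a gene end in 8 of them, with summed highest signals of 396 and the highest, 168, at MITF, the master regulator of the lineage. TYR, the tyrosinase gene, had none. Of 9 genes of blood, epithelium, endothelium and liver, 2 had such a region, with signals of 70.1 at CD3E and 4.68 at PTPRC and a sum of 74.8. The signal at CD3E, a T cell gene, was above that of every melanocyte gene checked except MITF, and its part in the results was not tested.

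Some members held an annotated start of transcription, and 4 of these are shown by sequence because, among tested members with the whole start window inside them, they had the highest signals and the highest and lowest fold changes. Windows of 300 bases around annotated starts, 250 before and 50 after, came from RefSeq on GRCh38.p14, and 263 of the 315 long genes could be matched to them. The 250 bases before each start are printed from 5′ to 3′ on the gene's strand, with CG dinucleotides, the sites of DNA methylation, in capitals.
SCHIP1 (chr3:159763432-159763681, plus strand): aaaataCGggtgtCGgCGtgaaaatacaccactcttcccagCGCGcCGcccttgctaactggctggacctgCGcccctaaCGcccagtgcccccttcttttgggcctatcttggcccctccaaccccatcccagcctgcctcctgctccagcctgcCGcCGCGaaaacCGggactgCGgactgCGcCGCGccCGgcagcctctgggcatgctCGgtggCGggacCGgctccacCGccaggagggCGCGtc
TRHDE (chr12:72272120-72272369, plus strand): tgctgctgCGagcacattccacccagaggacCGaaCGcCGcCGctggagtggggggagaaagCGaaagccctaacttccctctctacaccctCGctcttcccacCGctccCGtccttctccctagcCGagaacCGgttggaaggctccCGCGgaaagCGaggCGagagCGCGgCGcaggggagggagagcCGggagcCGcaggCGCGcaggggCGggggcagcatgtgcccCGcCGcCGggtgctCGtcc
CAMTA1 (chr1:7704486-7704735, plus strand): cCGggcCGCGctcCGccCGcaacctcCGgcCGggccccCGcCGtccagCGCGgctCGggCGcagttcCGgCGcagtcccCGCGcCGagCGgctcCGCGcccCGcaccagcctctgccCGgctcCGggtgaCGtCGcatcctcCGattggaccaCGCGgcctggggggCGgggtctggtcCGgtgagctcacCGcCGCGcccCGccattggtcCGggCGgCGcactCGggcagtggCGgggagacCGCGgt
INPP4B (chr4:142405860-142406109, minus strand): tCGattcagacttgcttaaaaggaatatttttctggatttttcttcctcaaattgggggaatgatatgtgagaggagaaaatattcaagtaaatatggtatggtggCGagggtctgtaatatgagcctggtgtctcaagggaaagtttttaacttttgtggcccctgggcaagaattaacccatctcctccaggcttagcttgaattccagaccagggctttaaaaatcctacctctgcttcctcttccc

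The SCHIP1 stretch, inside the long gene IQCJ-SCHIP1, held 23 CG dinucleotides with 68.4% G or C, and the one from TRHDE, a gene for a peptidase that degrades thyrotropin-releasing hormone, held 27 with 70.4%. The stretch from CAMTA1, which encodes a calmodulin-binding transcription activator, held 42 with 80.4%. The one from INPP4B, a phosphoinositide phosphatase, held 2 with 42.0%. The GC box GGGCGG, the motif of SP1-type factors, was found on either strand once in SCHIP1, once in TRHDE, 3 times in CAMTA1 and 0 times in INPP4B. So 3 of the 4 were rich in CG and 1 was not.

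The regions at these 4 starts were all strong enough to be tested, and none passed an adjusted p under 0.05. In the authors' deposited table the region at the SCHIP1 start (chromosome 3, 159762233 to 159766952) had the highest mean signal of all members, 411, with a log2 fold change of 0.29 (SE 0.11, DESeq2 adjusted p 0.171). The TRHDE region (chromosome 12, 72270739 to 72275267) had a mean of 235 and a log2 fold change of -0.04 (SE 0.14, DESeq2 adjusted p 0.916) in the authors' deposited table. Among tested members whose whole start window lay inside them, the region at CAMTA1 (chromosome 1, 7703920 to 7705033) was highest in the authors' deposited table, at 0.57 (SE 0.24, DESeq2 adjusted p 0.212) and a mean of 77.8. The lowest in the authors' deposited table was at INPP4B (chromosome 4, 142404097 to 142407097), -0.21 (SE 0.21, DESeq2 adjusted p 0.667) at a mean of 97.1.

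The members were weaker and narrower than regions in general. Their median mean signal was 10.1, with quartiles of 6.02 and 19.5, against 12.2 over all nuclear regions. Their median width was 404 bp, with quartiles of 286 and 593 bp, against 437 bp over all nuclear regions. The median signal was 11.7 equally deep in shorter genes and 10.99 in intergenic regions 10 to 200 kb from a gene. In deserts, more than 200 kb from every protein-coding gene, it was 9.25. The median widths were 418, 417 and 398 bp in the same order. Regions within 10 kb of a gene end were stronger and wider, at 19.01 and 549 bp. The authors' adjusted p covered regions with a mean of at least 63.8, called tested here. This held for 365 members, 3.77%, against 8.88% of all nuclear regions. The other members have a fold change but were outside the authors' adjustment and were treated as not tested, so most of what follows on genes describes untested regions.

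Per length, the interior of long genes held about as many regions as that of shorter genes, and fewer tested ones. Over the 253 Mb open to the rule there were 38.2 regions per Mb, against 40.8 per Mb over the 706 Mb of shorter gene interiors and 22.7 per Mb in deserts, more than 200 kb from every protein-coding gene. With long genes taken from 300 kb the order turned, to 40.9 per Mb in long and 39.5 in shorter genes. Tested regions numbered 1.44 per Mb in long genes, 2.08 in shorter genes and 0.746 in deserts. The regions covered 1.95%, 2.17% and 1.14% of the 3 kinds of sequence. The median mean signal per kb of region was 24.9, 27.8 and 23.6 in the same order. These are single values over the pooled libraries and have no replicate error, and the desert length includes assembly gaps.

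Most members lay above 0. The median log2 fold change of the members was 0.25, with quartiles of -0.06 and 0.57, and 70.7% were above 0. The median over all nuclear regions was 0.23, with 72.1% above 0, so the members sat on a shift that runs through the whole table. Among the 365 tested members the median was again 0.25, with quartiles of 0.066 and 0.42, and 300 of them, 82.2%, were above 0, against a median of 0.19 and 85.7% over all tested regions. The middle 50% of tested members spanned 0.355, wider than the 0.298 in shorter genes, the 0.293 in deserts and the 0.247 over all tested regions. In tested intergenic regions 10 to 200 kb from a gene it spanned 0.321. With untested regions included, the middle 50% spanned 0.632 in members, 0.591 in shorter genes, 0.599 in intergenic regions and 0.662 in deserts. With the median error of tested members, 0.23, a region reached an unadjusted p of 0.05 at a log2 fold change of 0.45. In bulk libraries, more cells with a region open and more access per cell cannot be told apart. Without values per library, neither can be told apart from a difference between the libraries themselves.

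The members' median was close to that of the most similar classes. It was 0.010 above that of regions equally deep inside shorter genes and 0.014 above that of deserts, and 0.0093 below that of intergenic regions 10 to 200 kb from a gene. Within 20 bins of equal mean signal the differences averaged 0.011, 0.022 and -0.013, with the members higher in 13, 14 and 8 of the 20 bins. No test of these differences could be made without values per library. Closer to genes, within 10 kb of an end, the median was 0.19, and 0.16 among tested regions.

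**Figure D1:**
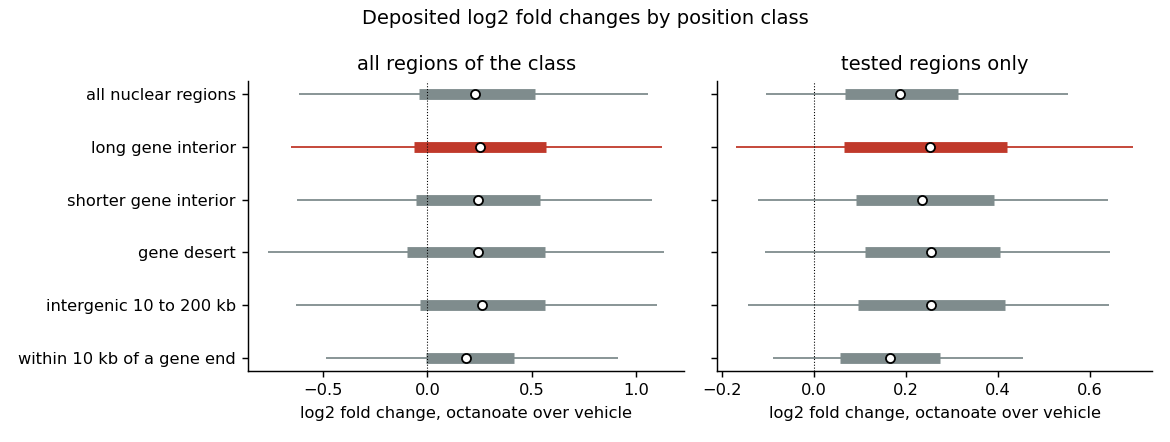
Deposited log2 fold changes (octanoate over vehicle, x axis) by position class, for all regions (left) and tested regions (right). Points are medians, thick bars the middle 50% and thin lines the 5th to 95th percentiles over regions, not replicate error. The red class, long gene interiors, has a median of 0.25 in both panels and the widest middle 50% among the tested classes.

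At a DESeq2 adjusted p under 0.05 the authors' deposited table held 6 members, all higher after octanoate. This was 1.64% of the tested members, against 1.02% of all tested nuclear regions. It was 1.49% of tested regions deep in shorter genes, 2.21% in deserts and 2.40% in intergenic regions, so the share in long genes lay inside the range of the other classes away from gene ends. No member was lower past this threshold in DESeq2's adjusted p, and at an unadjusted p under 0.05 there were 3 lower members, 0.822% of those tested, against 0.107% of all tested regions. At the same unadjusted threshold 94 members were higher, 25.8%, against 14.8% of all tested regions, 21.0% in shorter genes, 22.7% in deserts and 364 of 1582 tested intergenic regions.

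The largest rise was inside TRAPPC9, which encodes a subunit of a complex that tethers transport vesicles (chromosome 8, 140309269 to 140310512, 148 kb from the nearest gene end). The values implied by the deposited mean and fold change were 79.7 normalized reads in vehicle and 157 in octanoate. The authors' deposited table gave a log2 fold change of 0.98 (SE 0.21, DESeq2 adjusted p 0.00139). The other 40 members of TRAPPC9 had a median of 0.47, and 33 of them were above 0. All 6 other members within 100 kb were above 0, so the tested rise sat among neighbours on the same side.

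The region in PTPRN2, which encodes a phosphatase-like protein of secretory granules, lay 25.5 kb inside the low-coordinate end of the gene (chromosome 7, 157564509 to 157565634). Its implied values were 101 normalized reads in vehicle and 194 in octanoate. The authors' deposited table gave a log2 fold change of 0.95 (SE 0.18, DESeq2 adjusted p 0.000154). PTPRN2 was also one of the 8 long genes with most members, and its other 78 members had a median of 0.54, with 68 above 0. The 23 members within 100 kb had a median of 0.80, and 20 were above 0.

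RYR2 and NTM carried the strongest of the 6 regions by signal. RYR2 encodes the calcium release channel of the cardiac sarcoplasmic reticulum, and its region (chromosome 1, 237759174 to 237760316) had implied values of 173 and 290 normalized reads in vehicle and octanoate. The authors' deposited table gave it a log2 fold change of 0.75 (SE 0.14, DESeq2 adjusted p 0.000255). NTM encodes neurotrimin, an adhesion protein of the IgLON family, and its region (chromosome 11, 132071650 to 132073269) had implied values of 209 and 331. The authors' deposited table gave it a log2 fold change of 0.66 (SE 0.13, DESeq2 adjusted p 0.000838). The RYR2 region stood out more from its surroundings, with a median of 0.22 over the 19 members within 100 kb, 13 of them above 0. Around the NTM region the 17 members had a median of 0.48, with 14 above 0.

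The other two rises were in weaker regions, of GPC6 and PLXNA4. GPC6 encodes a glypican, a heparan sulfate proteoglycan of the cell surface, and its region (chromosome 13, 93261782 to 93263288) had implied values of 52.7 in vehicle and 98.7 in octanoate. The authors' deposited table gave 0.91 (SE 0.25, DESeq2 adjusted p 0.0359). PLXNA4 encodes a receptor for semaphorins, guidance cues of axons, and its region (chromosome 7, 132145048 to 132146013) had implied values of 60.0 and 106. The authors' deposited table gave 0.83 (SE 0.23, DESeq2 adjusted p 0.0359). The 13 members within 100 kb of the GPC6 region had a median of 0.17, with 9 above 0, and the 8 around the PLXNA4 region a median of 0.30, with 7 above 0.

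Where the shared shift was taken off first, fewer of the 6 held. Relative to the median of all tested nuclear regions, 0.19, the rises were 0.79 in TRAPPC9, 0.76 in PTPRN2, 0.72 in GPC6, 0.64 in PLXNA4, 0.56 in RYR2 and 0.48 in NTM. The Benjamini-Hochberg adjusted p recomputed from the deposited errors was then 0.0342 for PTPRN2 and between 0.114 and 0.657 for the other 5. TRAPPC9, PTPRN2 and NTM lay within 5 Mb of a chromosome end, and without such regions 3 members remained past the deposited threshold.

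No member fell past the adjusted threshold. The lowest tested value in the authors' deposited table was in TRPM3, a cation channel gene (chromosome 9, 70588377 to 70590803), at -0.51 (SE 0.21, DESeq2 adjusted p 0.218). PRELID2 (chromosome 5, 145499355 to 145500183) followed at -0.49 (SE 0.25, DESeq2 adjusted p 0.334) in the authors' deposited table. SLC24A2, a sodium, calcium and potassium exchanger gene (chromosome 9, 19986744 to 19988854), had -0.48 (SE 0.23, DESeq2 adjusted p 0.299) in the authors' deposited table. PTPRG, a receptor phosphatase gene (chromosome 3, 61682514 to 61683435), had -0.40 (SE 0.26, DESeq2 adjusted p 0.463) in the authors' deposited table. The medians of the genes that held these regions were 0.035 over 34 members in TRPM3, 0.054 over 25 in SLC24A2, 0.21 over 42 in PTPRG and 0.42 over 35 in PRELID2. TRPM3 and SLC24A2 lay below the lower quartile of gene medians, 0.15, and PRELID2 above the upper one, 0.35.

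Of the 4 strongest members, 3 did not pass the adjusted threshold. By mean signal the region at the SCHIP1 start came first, then the NTM region, then one in GALNT13 and then the TRHDE start. GALNT13 is a gene for an enzyme that starts O-linked glycans and its region (chromosome 2, 153870309 to 153874065) had a mean of 238 and a log2 fold change of 0.30 (SE 0.15, DESeq2 adjusted p 0.310) in the authors' deposited table. The NTM region was the one that passed, and it had the smallest fold change of the 6. When the members were split into 5 equal parts by mean signal, the median ran from 0.31 in the weakest part to 0.24 in the strongest, and the share above 0 from 63.6% to 78.3%.

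**Figure D2:**
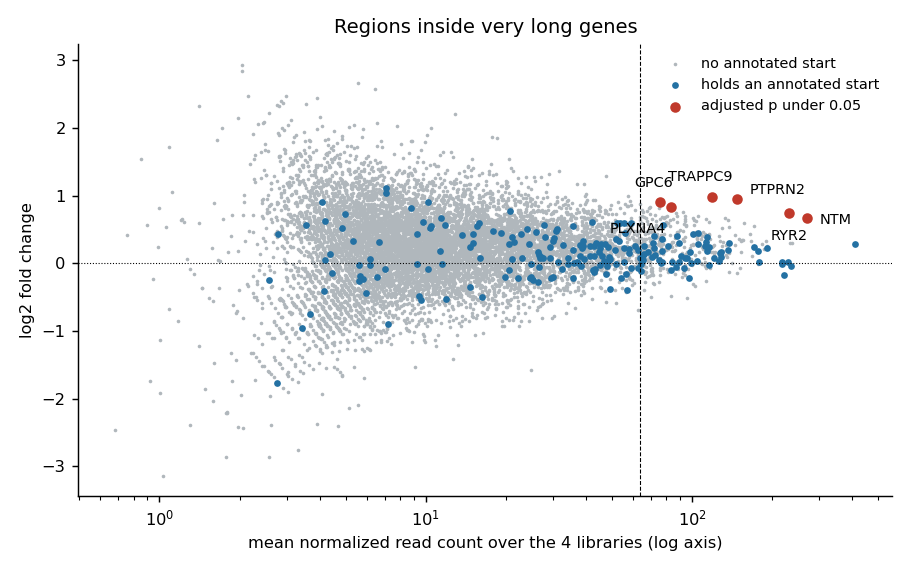
Log2 fold change (y axis) against mean normalized read count (x axis, log scale) for the 9671 members. The dashed line marks the lowest tested mean of 63.8, red points are the 6 members at an adjusted p under 0.05, and blue points hold an annotated start. The 6 red points lie between 0.66 and 0.98, and no blue point is among them. Members in genes that could not be matched to start windows are grey or red.

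Several genes held more than 1 tested member on the high side without passing the adjusted threshold. The 19 genes with at least 5 tested members were singled out after their values were seen, and their counts stand beside 14.8% of all tested regions and 25.8% of tested members higher at an unadjusted p under 0.05. SMYD3, which encodes a lysine methyltransferase, had 5 tested members, with means from 68.1 to 87.0 and log2 fold changes of 0.58, 0.65, 0.70, 0.75 and 0.82 in the authors' deposited table. All 5 had an unadjusted p under 0.05, and their lowest DESeq2 adjusted p was 0.0590. SMYD3 lies within 5 Mb of a chromosome end, where 44.4% of all tested members were higher at that unadjusted threshold. The pair with the highest values in SMYD3 (chromosome 1, 246139657 to 246140514 and 246142176 to 246143031) lay side by side in the list of regions of the gene. In CHRM3, a muscarinic acetylcholine receptor gene, 5 of 7 tested members were higher at that unadjusted threshold, with a range of -0.07 to 0.67 and, in the authors' deposited table, a lowest DESeq2 adjusted p of 0.0932. Over all 45 members of CHRM3 the median was 0.040.

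Near-threshold regions were found in both neighbouring IgLON genes of chromosome 11. Both genes lie within 5 Mb of a chromosome end, where 44.4% of all tested members were higher at an unadjusted p under 0.05. Against the same 14.8% and 25.8%, OPCML had 4 of 7 tested members higher at an unadjusted p under 0.05, with a range of 0.18 to 0.66 and, in the authors' deposited table, a lowest DESeq2 adjusted p of 0.0502. NTM had 3 of 7, with a range of 0.24 to 0.66 in the authors' deposited table, and 1 of the 3 (132064540 to 132065534, log2 fold change 0.55) lay close to the region past the threshold. SPOCK1, a testican proteoglycan gene, had 3 of 5, from -0.08 to 0.69 in the authors' deposited table, while the median over its 32 members was 0.13. In STARD13, GRM8, KAZN and MYO16 the count was 0, with 5, 6, 5 and 5 tested members. The 94 higher members were spread over 60 genes.

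Medians were taken for the long genes with enough members. In the 227 long genes with at least 20 members, which held 8597 members, the gene medians had an SD of 0.157. Single members varied with an SD of 0.53 within genes, which is larger by construction. The medians ran from -0.28 to 0.74 with quartiles of 0.15 and 0.35, and 218 of them were above 0. A typical member had a standard error of 0.67, so a gene median rests on many imprecise values. No test of a gene median could be made, and the members of a gene share its copy number and surroundings.

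Among the long genes with at least 20 members, the highest medians belonged to genes of unlike function. AGBL1, a carboxypeptidase gene, had a median of 0.74 over 34 members, 33 of them above 0, and of 0.45 over its 8 members at or above the median signal of all nuclear regions. DPP6, an auxiliary subunit of potassium channels, had 0.69 over 49 members, with 46 above 0. CPNE4, a copine that binds phospholipids in the presence of calcium, had 0.61 over 22 members and ASIC2, an acid-sensing sodium channel, 0.61 over 25. NAALADL2 had 0.58 over 45 members, with 38 above 0. Of their members only 2 in AGBL1 and 2 in ASIC2 were strong enough to be tested, and these 4 were higher at an unadjusted p under 0.05, against 14.8% of all tested regions and 25.8% of tested members. They belong to genes chosen for their high medians and support nothing further.

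Among the long genes with at least 20 members FOXP2, a forkhead transcription factor gene, had the lowest median, -0.28. Of its 26 members 8 were above 0. The regions around FOXP2, within 1 Mb outside the gene, had a median of 0.15, so the low values were inside the span. NKAIN2 followed with -0.11 over 28 members, 11 above 0, then PRKG1, a cyclic GMP-dependent kinase gene, with -0.07 over 36, 16 above 0. SOX6, a transcription factor gene, and TMEM117 each had -0.06, over 25 and 23 members with 12 and 8 above 0. In FOXP2, NKAIN2 and PRKG1 0 members were tested, against 3 in SOX6 and 1 in TMEM117. At or above the median signal of all regions the medians of NKAIN2 and TMEM117 turned to 0.093 and 0.025, those of PRKG1 and SOX6 were -0.011 and -0.028, and that of FOXP2 was -0.37 over 10 members.

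**Figure D3:**
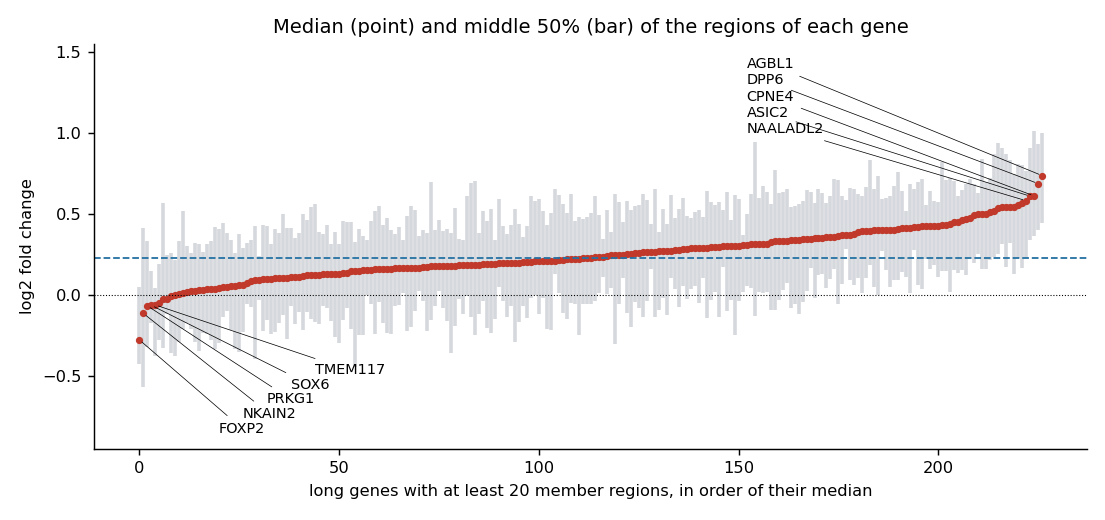
Median log2 fold change (red points) and the middle 50% of members (grey bars) for the 227 long genes with at least 20 members, ordered by median along the x axis. The dashed line is the median of all nuclear regions, 0.23, and the dotted line is 0. The points run from -0.28 in FOXP2 to 0.74 in AGBL1, and the grey bars of most genes overlap.

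The 8 genes with most members are given by raw number, which grows with span. CNTNAP2, a neurexin relative, had 131 members with a median of 0.25, and TENM2, a teneurin, 100 with 0.18. KAZN, a gene of cell junctions, had 98 with 0.35 and GPC5, a second glypican, 91 with 0.31, which was 0.18 over the 35 at or above the median signal of all regions. DLG2, a scaffold of synapses, and DAB1, an adaptor of reelin signalling, had 86 each with 0.26 and 0.37. AGBL4, a second carboxypeptidase gene, had 83 with 0.32. These medians ran from 0.18 to 0.37, and the eighth gene by number of members, PTPRN2 with 79, had 0.54.

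The number of members per length also varied between genes. The median over genes was 36.8 members per Mb. MYT1L, a transcription factor of neurons, had 105 per Mb, followed by SLIT3, a ligand of ROBO receptors, with 96.9, RYR2 with 94.6 and NAV2 with 88.6. The median fold changes of these 4 were 0.54, 0.43, 0.36 and 0.14. At the other end, among genes with any member, DSCAM, an adhesion gene, had 4.90 per Mb from 4 members, SCAPER 5.58 from 3 and DACH2 6.02 from 4.

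Fold changes inside a gene went with those around it. Across the 227 genes the gene median and the median of regions within 1 Mb outside the gene, starting 10 kb from its ends, had a Pearson r of 0.55 and a Spearman rank correlation of 0.56. With members of other long genes taken out of the flanks these were 0.55 and 0.57 over 165 genes. The 20 genes with the highest medians had a median flank value of 0.35, and the 20 with the lowest had 0.15. These correlations are across genes that share all 4 libraries and, with their flanks, a stretch of chromosome, so they are descriptions. With the gene's span the r was -0.014, with its median mean signal -0.11 and with its members per Mb 0.16.

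**Figure D4:**
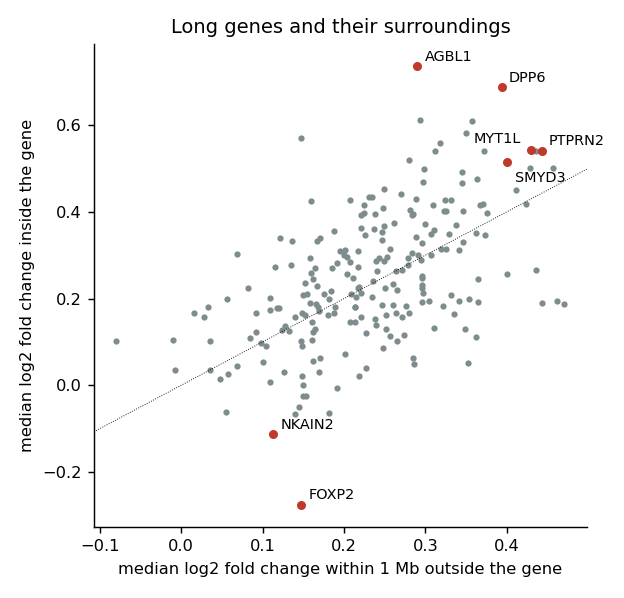
Median log2 fold change inside each long gene (y axis) against the median of regions within 1 Mb outside it (x axis), 1 point per gene, with the dotted line at equal values. AGBL1 and DPP6 lie above the line, at 0.74 against 0.29 and 0.69 against 0.39, and FOXP2 lies below it, at -0.28 against 0.15.

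Each gene was also split at its midpoint. Over 174 genes with at least 10 members on each side the r between sides was 0.36 and the Spearman rank correlation 0.34, from fewer members per value and another set of genes than with the flanks. In 67 genes both sides were above the all-region median, in 46 both were below it, and in 61 they differed. AGBL1 had 0.74 and 0.73 on its sides and ASIC2 0.61 and 0.60, while CPNE4 had 0.92 and 0.36. FOXP2 was not among the 174, with 8 members at -0.14 on its low-coordinate side, which holds its start, and 18 at -0.37 on the other.

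**Figure D5:**
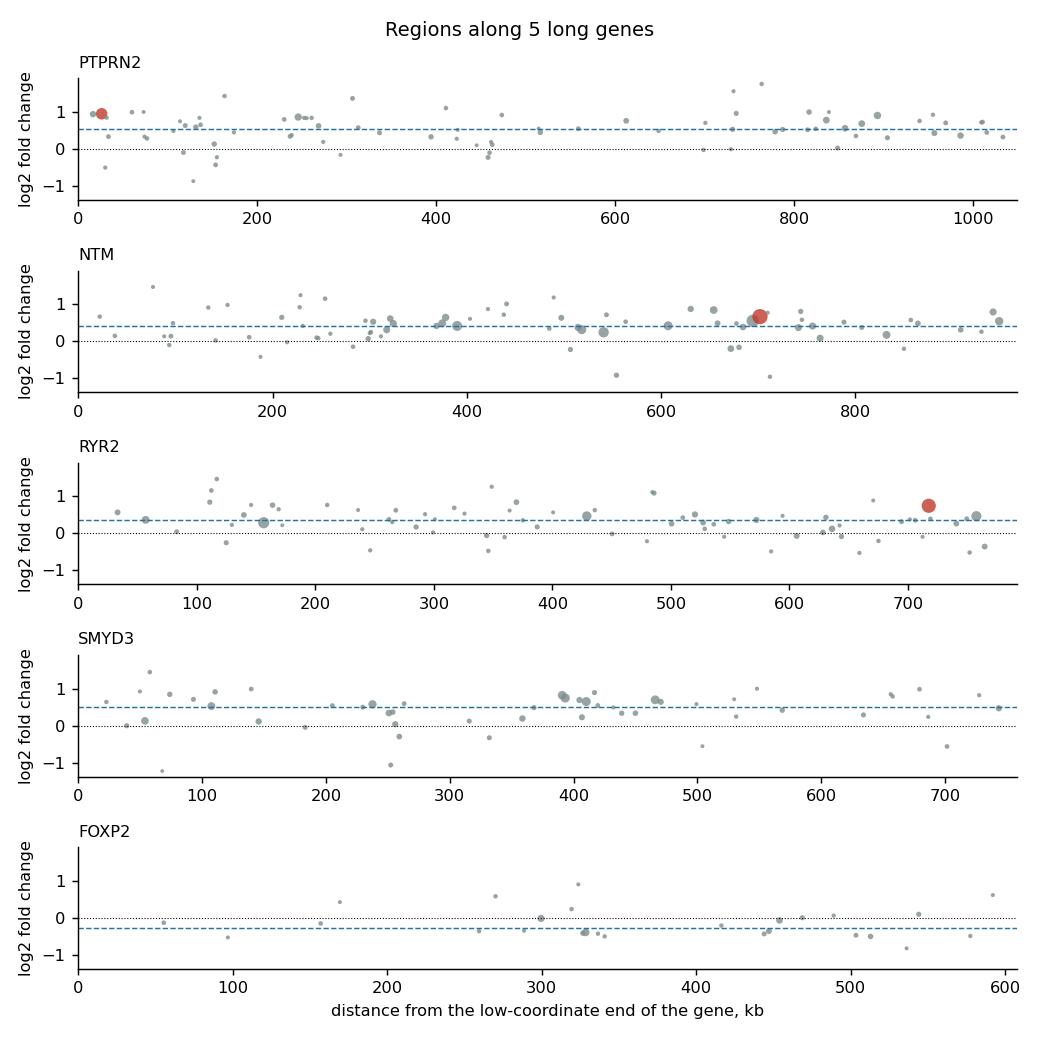
Log2 fold change (y axis) of each member along PTPRN2, NTM, RYR2, SMYD3 and FOXP2 by distance from the low-coordinate end of the gene in kb (x axis). Point area grows with mean signal, red points have an adjusted p under 0.05, and the dashed line is the gene's median. Members of PTPRN2 and SMYD3 lie mostly above 0, at medians of 0.54 and 0.51, and 8 of the 26 in FOXP2 lie above it.

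Position within the gene made little difference. In 5 equal parts of a gene from its start along its own strand, over 8164 members, the medians were 0.26, 0.26, 0.25, 0.25 and 0.23. By distance to the nearest gene end they were 0.27 from 10 to 50 kb, 0.24 to 100 kb, 0.25 to 200 kb, 0.26 to 500 kb and 0.22 beyond. By span the medians ran from 0.24 in genes of 1500 kb or more to 0.26 in those of 1000 to 1500 kb. Regions at the edges of the rule gave 0.22 for the 33 regions 10 to 11 kb from a gene end and 0.069 for the 33 regions 9 to 10 kb away. The shortest long genes, AFF2 at 500.047 kb and PPP2R2B at 500.779 kb, had medians of 0.15 over 14 and 0.13 over 29 members. The genes just too short, DIAPH3 at 498.346 kb and CPQ at 498.26 kb, had -0.18 over 12 and 0.52 over 13 regions.

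Distance to the chromosome end set members apart more than place in the gene. The 838 members within 5 Mb of an end had a median of 0.37, with 78.9% above 0, against 0.24 and 69.9% for the 8833 elsewhere. Among tested members, 20 of 45 near the ends, 44.4%, were higher at an unadjusted p under 0.05, against 74 of 320, or 23.1%, elsewhere. A few genes carried many of the 20, with 5 in SMYD3, 4 in OPCML and 3 in NTM. Over all tested nuclear regions the shares were 32.0% near the ends and 13.1% elsewhere, with medians of 0.33 and 0.22 over all regions, so the same order ran through the whole table. High medians near ends were those of PTPRN2, DPP6, MYT1L at 0.54, SMYD3 at 0.51, TMEM132D at 0.50, TRAPPC9 at 0.50, DLGAP2 at 0.49 over 18 members, CDH4 at 0.48 and OPCML at 0.45. ADARB2 at -0.01 over 14 members and GLIS3 at 0.11 over 52 were also near an end. Of 23 long genes near an end, 17 had a median above the all-region median and 6 below it. Between chromosomes the member medians ran from 0.15 on chromosomes 9 and 18 to 0.42 over 157 members on chromosome 15. Chromosome 9 regions deep in shorter genes had 0.23, and those of chromosome 15 had 0.34.

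Members that held an annotated start had lower fold changes than the rest. Of the 8164 members in genes with start windows, 204, or 2.50%, overlapped one, in 131 genes. Their median log2 fold change was 0.11, against 0.25 for the 7960 others. They were stronger, with a median mean signal of 39.2 against 10.0, and wider, at 1022 against 401 bp. Of the 57 tested among them 5, or 8.77%, were higher at an unadjusted p under 0.05, against 72 of 255, or 28.2%, of the others. Over all tested nuclear regions the share was 14.8%, and over those with an annotated start it was 9.44%, so the members with a start were close to starts elsewhere. The windows belonged to the long gene itself in 145 members, with a median of 0.11, to a long noncoding RNA alone in 53, with 0.10, and to another protein-coding gene alone in 6. The 6 include the SCHIP1 start, since that member was assigned to the longer gene, IQCJ-SCHIP1.

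The lower values at starts were seen at like signal as well. Between 20 and 40 normalized reads the median was 0.085 over 49 members with a start and 0.24 without, between 40 and 80 it was 0.13 over 62 and 0.25, and between 80 and 160 it was 0.15 over 29 and 0.27. Between 10 and 20 the order turned, with 0.36 over 20 members against 0.22, and below 10 it was -0.013 over 34 against 0.29. Deep in shorter genes the same split gave 0.14 over 1023 regions with a start and 0.25 over 22415 without, so it is not particular to long genes. Among members of genes with start windows, starts were present in 18.3% of the 312 tested, in 30.0% of the 50 strongest and in 45.2% of those 2 kb or wider. Of the 6 members past the threshold, the 4 in genes with matched windows, in GPC6, PLXNA4, RYR2 and NTM, overlapped 0 start windows. The nearest available window lay 34.9, 206, 563 and 138 kb away. Genes without a window were not counted, so a start of such a gene may lie closer.

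Starts inside long genes were poorer in CG than starts in general, and the INPP4B stretch printed above is of that kind. The median was 4 CG in windows inside long genes and 5 inside shorter genes, so the low number is not particular to long genes. The rule's interior of long genes held 857 start windows, of which 274, or 32.0%, overlapped a listed region, against 1401 of 3888, or 36.0%, in shorter genes. Windows with a region had a median of 9 CG dinucleotides and 53.3% G or C, and those without had 3 and 42.7%, while all 35116 windows had 14 and 58.7%. Split by CG into 3 groups of like size, the 204 members had median fold changes of 0.14 over 71 with at most 4 CG, 0.17 over 67 with 5 to 16 and 0.078 over 66 with 17 or more. Of the group with most CG, 31 were tested, against 10 of the poorest group. SCHIP1, TRHDE and CAMTA1 belong to the group with most CG.

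The neuronal adhesion genes were the largest list examined, with 28 long genes and 1225 members. Their median was 0.26, and all 23 genes with at least 20 members had a median above 0, against 218 of 227 over all long genes, and 14 of the 23 were above the all-region median. They ran from 0.050 in LRRC4C, a synaptic adhesion gene, to 0.49 in CTNNA2, a catenin gene. Of their 50 tested members 20, or 40.0%, were higher at an unadjusted p under 0.05, against 14.8% of all tested regions and 25.8% of all tested members, and 1, in NTM, passed the adjusted threshold in the authors' deposited table (DESeq2). Of the 20, 3 were in NTM and 4 in OPCML, which lie within 5 Mb of a chromosome end. Of all tested members near such ends 44.4% were higher at that unadjusted threshold. Cadherins had a median of 0.19 over 196 members of 7 genes, with 1 of 3 tested higher at the unadjusted threshold. Axon guidance genes had 0.24 over 379 members of 13 genes, with 4 of 13 tested higher, or 30.8%, and PLXNA4 past the adjusted threshold. The lowest gene there was ROBO2, a receptor of SLIT ligands, at 0.030. Its median was 0.064 at or above the median signal of all regions and -0.20 after centring on the median of all regions.

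Receptor and channel lists had medians from 0.28 to 0.33, and their counts of higher tested members stand beside the same 14.8% and 25.8%. Receptor tyrosine kinases and phosphatases had 0.33 over 315 members of 8 genes, 79 of them in PTPRN2. The median of its tested members was 0.16, and 2 of 6 genes with at least 20 members were above the all-region median. Of the 9 tested members 3 were higher at an unadjusted p under 0.05, or 33.3%, among them the PTPRN2 region. Ion channels and their partners had 0.32 over 365 members of 10 genes, with 3 of 11 tested higher, or 27.3%, and 1, in TRPM3, lower. DPP6 was the highest of them and TRPM3, at 0.035, the lowest. Glutamate and GABA receptors had 0.28 over 206 members of 7 genes, with 2 of 16 tested higher, or 12.5%. GRID1, a delta-type glutamate receptor gene, had 0.47 over 44 members.

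Transcription factor and chromatin genes had 0.20 over 661 members of 19 genes, with 8 of 35 tested members higher, or 22.9%, against 14.8% of all tested regions and 25.8% of tested members. Their gene medians ran from FOXP2 to MYT1L, and 13 of 16 were above 0, against 218 of 227 over all long genes. Phosphodiesterase and phospholipid signalling genes had 0.18 over 404 members of 11 genes, with 2 of 18 tested higher, or 11.1%. PDE4D, a cyclic AMP phosphodiesterase gene, had 0.20 over 76 members. Its median was 0.11 at or above the median signal of all regions and -0.025 after centring on the median of all regions.

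Common fragile site genes had 0.29 over 1055 members of 22 genes, and 6 of 31 tested members were higher, 19.4%, against 14.8% of all tested regions and 25.8% of tested members. Their medians ran from 0.098 in MACROD2, a gene for an ADP-ribosylhydrolase, to that of NAALADL2. That of MACROD2 was 0.22 at or above the median signal of all regions and -0.13 after centring on the median of all regions. The lipid and fatty acid list, of interest for a fatty acid treatment, had 0.19 over 266 members of 8 genes, with 1 of 8 tested higher, or 12.5%. The genes with most members in it were MACROD2, with 66, which is not an enzyme of lipid metabolism, and LRP1B, a lipoprotein receptor relative, with 57. The highest gene median in it was 0.30 over 44 members in LPP, which encodes a LIM-domain protein of cell adhesion sites and is no lipid gene either, so the list holds much that its name does not cover. Some genes stand in more than 1 list, and the medians of the lists given here, from 0.18 to 0.33, enclose the 0.25 of all members.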

How the data were processed

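Libraries of vehicle and octanoate cells (2 each) were compared by the authors with DESeq2, per the file headers and the submitters' processing notes, which also name Trim Galore, cutadapt, FastQC, Bowtie2, Picard, MACS2, featureCounts, bedtools 2.29.1 and hg38 without giving roles. The labels' protocols give no shift of reads for the Tn5 cut. The authors' signal column averages normalized reads of the 4 libraries. The deposited log2 fold change has vehicle as its base and comes with a standard error, and the deposited score is their ratio. The deposited p-value is two-sided, and its adjusted form equalled Benjamini-Hochberg adjustment over 11185 regions (largest difference 1.69e-14), listed as 1 for 114801 others, treated here as not tested. The table has 0 columns per library, so depth per library is unknown, no interval or own test between groups was possible, and no region has a value per sample.

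Regions were placed by their own coordinates among RefSeq genes of GRCh38.p14. Chromosome ends were taken at the outermost RefSeq gene or listed region. Exons and introns were not analysed here. Start windows were searched on both strands for the AP-1, GC box, E-box and CRE motifs spelled out with their counts. Regions past the threshold (up to 12), the 4 lowest and the 4 strongest were named. For genes these were the 8 with most members, the 5 highest and 5 lowest medians, the 4 densest and 4 sparsest and up to 2 per list. A gene list is not reported here. The members and lists were chosen with earlier results of these data known. Classes, medians and counts used Python 3.11.15, pandas 2.3.3, numpy 2.4.6 and scipy 1.17.1, and scripts were tested on simulated data. Alternatives were other p thresholds and adjustments, centring, other gene lengths and distances, signal filters, and leaving out starts or chromosome ends.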

Additional observations from a re-analysis of the deposited data

How the results depend on the processing

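Of the 6 members past the threshold, 4 remained at an adjusted p under 0.01 and there were 25 under 0.1. With Benjamini-Hochberg adjustment over all regions, or over those at or above the 25th percentile of signal, there were 4. Subtracting the tested median from each fold change left 1, PTPRN2, and subtracting the median of all nuclear regions left 0. Longer or shorter gene limits gave 11 at 300 kb and 2 at 1 Mb, and a distance over 50 kb from gene ends gave 3, by changing which regions were members. An alternative chosen after seeing the data, without regions within 5 Mb of a chromosome end, also gave 3. The count stayed at 6 without members holding a start, also chosen after seeing the data.

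The members' median was 0.243 for regions at or above the median signal, 0.243 without chromosome ends, 0.236 as a median of gene medians, and 0.068 and 0.025 after centring on tested and on all regions. Regions per Mb were 15.7 at or above the median signal, against 19.7 in shorter genes. The difference from deserts turned to -0.0027 among tested regions, and the median of gene medians minus the desert regions' median was -0.0044, and that from shorter genes kept its sign in every alternative run. Centring on all regions put below 0 the medians of GLIS3 (-0.12), MACROD2 (-0.13), MAGI2 (-0.0052), NAV2 (-0.092), PCDH15 (-0.067), PDE4D (-0.025), PTPRD (-0.036), ROBO2 (-0.20) and TENM2 (-0.046), and of the cadherin (-0.037), transcription factor (-0.032), phosphodiesterase (-0.052) and lipid (-0.044) lists. At or above the median signal NKAIN2 turned to 0.093 and TMEM117 to 0.025, AGBL1 went to 0.45 and GPC5 to 0.18. Other medians moved by over 1.5 times there without a change of sign, to 0.17 in GLIS3, 0.22 in MACROD2, 0.11 in PCDH15 and PDE4D, 0.17 in CDH13, 0.064 in ROBO2, -0.011 in PRKG1 and -0.028 in SOX6. Taking only regions wholly inside the gene changed nothing, since every member was.

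No paired analysis was possible because single libraries have no values in the deposited comparison. Other normalizations and fits without 1 replicate were not run, for want of those values. Only 3.77% of the members were deep enough to be tested.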

Other observations

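The pattern TGANTCA, with any middle base, is a loose form of the AP-1 motif of FOS and JUN dimers. It stood in the start windows of 36 of the 204 members that hold a start, 17.6%, against 7.71% of all 35116 start windows. The median log2 fold change of those with the motif was 0.22 and of those without it 0.096. The GC box GGGCGG stood in 64 of the 204, 31.4% against 45.0% of all windows, the E-box CACGTG in 9, 4.41% against 7.26%, and the cyclic AMP response element TGACGTCA in 2, 0.980% against 1.85%. These differences were not tested, and the sets are unlike, since the 204 all lie at listed regions while the 35116 include windows without one. A match of letters is not a bound site, and the windows of long genes also hold less G and C. Members overlapped 4 microRNA hairpins, none of them in a tested region. Their fold changes, on the log2 scale of the authors' deposited table, were 1.18 (SE 0.61) at MIR7157 in LRP1B, 0.82 (SE 0.59) at MIR583 in CAST, 0.59 (SE 0.88) at MIR6718 in DLGAP1 and 0.12 (SE 0.35) at MIR12125 in TENM2.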
